A study of Sus scrofa with 20 samples.

Results

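The corticotropin-releasing hormone (CRH) system was examined in the amygdala of 20 German Landrace pigs. It was defined as all probe sets of the array that the platform annotation names CRH, CRHBP, CRHR1, CRHR2, UCN or UCN3. This rule found 9 probe sets for 4 of the 6 genes, among 13755 named genes in the table: 1 for CRH, 5 for CRHR1, 2 for CRHR2 and 1 for UCN3. No probe set carried the symbol CRHBP or UCN, so the CRH-binding protein and urocortin were not analysed here. The animals were sampled at slaughter age, and no treatment is given in the labels. They fell into 10 high-reactive (HR) and 10 low-reactive (LR) pigs of coping behavior, with 1 Affymetrix Snowball array of total RNA per animal. Both groups were picked from a larger herd for extreme struggling scores in piglet backtests and for the haplotype they carried at a locus on SSC12 linked to coping. Coping score and haplotype therefore cannot be told apart, and sex is not given in the labels. Values are on the log2 scale, and differences are HR minus LR.

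CRH is a peptide that hypothalamic neurons release to start the hormonal stress response, and that neurons of the central amygdala use as a transmitter in fear and arousal. It acts mainly on the receptor CRHR1, which couples to the stimulatory G protein and cyclic AMP. The related peptide urocortin 3, encoded by UCN3, binds CRHR2 and hardly CRHR1. In rodents CRHR1 is widespread in cortex and basolateral amygdala, whereas CRHR2 is found in fewer forebrain sites, among them the medial amygdala and the choroid plexus.

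No member differed between HR and LR after adjustment. The limma adjusted p values of the 8 tested probe sets lay between 0.157 and 0.725, and 0 of 8 passed at 0.05, against 0.00838% of all 23860 tested probe sets. All 8 averaged higher in HR, as did 59.1% of all tested probe sets, and 6 of 8 did in 5 other settings, where UCN3 and the fourth CRHR1 probe set turned lower. With all arrays 4 of the 8 had an unadjusted limma p under 0.05, all higher in HR: 1 of CRHR2 and 3 of CRHR1. Over all tested probe sets 12.3% had such a p higher in HR, 14% lower in HR and 26.3% in either direction. Counted once per gene, by its brightest probe set, 2 of 4 genes had such a p, both higher in HR. Of all 10307 tested genes 14.2% did so. The median difference of the 8 was 0.17, against 0.05 over all tested probe sets. In all 9 probe sets the values of the groups overlapped. The tissue is a mixture of cells, so more cells of a type and more RNA per cell cannot be told apart.

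**Figure D1:**
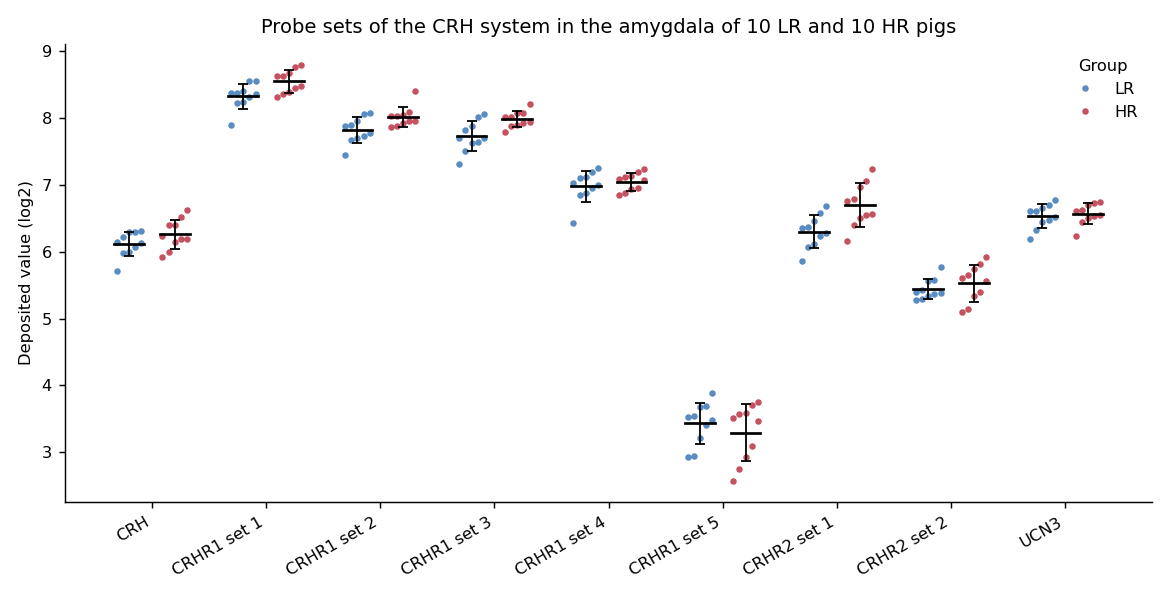
Values of the 9 probe sets (horizontal axis, sets of a gene numbered from the brightest) on the log2 scale (vertical axis), with a point per animal, LR in blue and HR in red, and bars for the mean and SD of 10 animals. The groups overlap in every probe set, and CRHR2 set 1 has the widest gap between means, 6.70 in HR and 6.30 in LR.

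How far each probe set stood above array background bears on all that follows. The array carries 69 background probe sets that match no gene, and their means over the 20 arrays ran from 1.35 to 8.10. They were nearly flat over the lowest GC classes in their names, rose over the middle ones to a peak at classes 22 and 23, and were lower again at classes 24 and 25. The brightest CRHR1 probe set was above every background probe set in 20 of 20 arrays, and it was the only one of the 9. The next 2 CRHR1 probe sets were above the 95th percentile of background in 7 and 2 arrays. The other 6, which hold all of CRH, CRHR2 and UCN3, were above it in 0 arrays. All 8 tested probe sets exceeded the mean of the background probe sets of every array, whereas the fifth CRHR1 probe set was below that mean in every array. The GC content of the member probes is not given in the sources used here, so a level within the background range does not say whether the transcript was present.

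**Figure D2:**
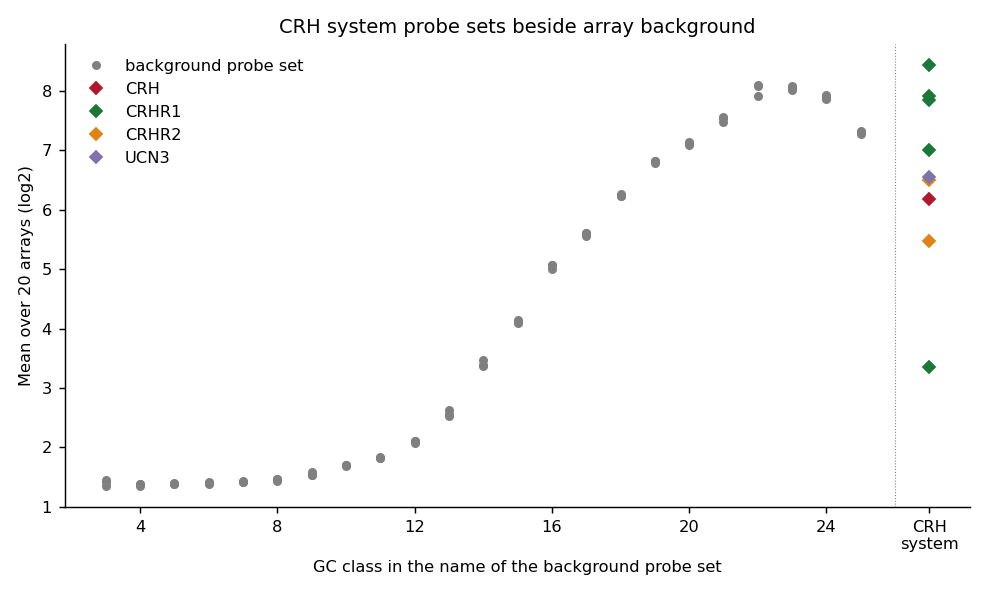
Mean over 20 arrays (vertical axis, log2) of each background probe set (grey circles) against the GC class in its name, and of the 9 CRH system probe sets (coloured diamonds, at the right). Background runs from 1.35 to 8.10, and only the brightest CRHR1 probe set, at 8.43, lies above all of it.

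CRHR2, the receptor of urocortin 3, had the largest difference of means among the 8 on 1 of its 2 probe sets. On this brighter probe set, SNOWBALL_023045_st, the HR values ran from 6.16 to 7.23 with a median of 6.66, and the LR values from 5.86 to 6.69 with a median of 6.32. In HR 9 of 10 animals lay above the LR median and 5 lay above every LR animal, counts that CRHR1 probe sets matched or exceeded, while HR replicate 10 was among the lowest of all. HR averaged 6.70 ± 0.33 (SD, n = 10), while the LR mean was 6.30 ± 0.25 (SD, n = 10). The difference of 0.40 ± 0.12 (SE), or 1.32-fold, had a 95% confidence interval of 0.14 to 0.65, an unadjusted limma p of 0.00380 and an adjusted p of 0.157. This probe set also varied more between animals of a group than most, with an SD within groups above that of 75.5% of tested probe sets.

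The second CRHR2 probe set, SNOWBALL_019912_st, gave another picture. Its HR values ran from 5.09 to 5.92 with a median of 5.59, and its LR values from 5.28 to 5.77 with a median of 5.39. HR animals took both the lowest and the highest places, with HR replicates 1 and 4 below every LR animal. The difference was 0.09 ± 0.10 (SE), with a 95% confidence interval of -0.12 to 0.29 and a limma adjusted p of 0.527. Over the 20 animals the 2 CRHR2 probe sets correlated at r = 0.212 (permutation p = 0.369) and rho = 0.250 (permutation p = 0.285), and the adjusted p of r over 11 pairs of probe sets of 1 gene was 0.565. Without HR replicate 6 and LR replicate 3, the arrays farthest from the median of the brighter set, r was 0.252. HR replicate 4 was among the 3 highest animals on the brighter probe set and among the 2 lowest on the other. The annotation does not say which part of the transcript either probe set covers.

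CRHR1, the main receptor of CRH, had 5 probe sets. On the brightest, SNOWBALL_014322_st, the HR values ran from 8.31 to 8.79 with a median of 8.55, and the LR values from 7.89 to 8.55 with a median of 8.36. Of the HR animals 5 lay above every LR animal, and LR replicate 3 lay below all others. HR averaged 8.55 ± 0.17 (SD, n = 10), while the LR mean was 8.32 ± 0.19 (SD, n = 10). This difference of 0.22 ± 0.08 (SE), or 1.16-fold, had a 95% confidence interval of 0.05 to 0.39, an unadjusted limma p of 0.0146 and an adjusted p of 0.158.

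The next brightest CRHR1 probe sets, the second (SNOWBALL_014285_s_st) and the third (SNOWBALL_023046_s_st), behaved much alike. On the second, HR ran from 7.86 to 8.40 with a median of 7.99, and LR from 7.44 to 8.07 with a median of 7.83. On the third, HR ran from 7.78 to 8.2 with a median of 7.97, and LR from 7.31 to 8.06 with a median of 7.70. On both, all 10 HR animals lay above the LR median, while LR replicates 7 and 9 lay above the HR median. The differences were 0.20 ± 0.08 (SE) for the second and 0.25 ± 0.08 (SE) for the third, at unadjusted limma p values of 0.0237 and 0.00619 and adjusted p values of 0.165 and 0.157. The second had an unadjusted p of 0.05 or more when HR replicate 6 was left out, with a difference of 0.15. These probe sets followed each other over the 20 animals at r = 0.913 and rho = 0.890 (permutation p = 1e-05 for both, the smallest possible). The adjusted p was 0.00011 for both over the 11 pairs, and leaving out LR replicate 3 and HR replicate 6 gave r = 0.867. Whether they share probes is not given in the sources used here.

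With the animal number of the labels as a covariate, none of these 3 CRHR1 probe sets had an unadjusted limma p under 0.05. Their values were 0.160, 0.324 and 0.0976 in order of brightness, while the brighter CRHR2 probe set had 0.0409, at an adjusted p of 0.820. In that fit 2.28% of all tested probe sets had an unadjusted p under 0.05 and were higher in HR. For 9 of 10 HR animals the animal number exceeds the highest among LR animals, so it and the group can hardly be told apart.

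The remaining CRHR1 probe sets showed little separation. On the fourth, SNOWBALL_034015_st, HR ran from 6.85 to 7.23 with a median of 7.08, and LR from 6.43 to 7.24 with a median of 7.01. Its difference was 0.07 ± 0.09 (SE), with a limma adjusted p of 0.562, and no HR animal exceeded the highest LR animal. The fifth, SNOWBALL_037114_st, fell below the filter on dim probe sets. It ran from 2.57 to 3.75 in HR and from 2.93 to 3.89 in LR, and its difference in a fit of all probe sets without the filter was -0.14 ± 0.16 (SE). Its r with the other 4 CRHR1 probe sets lay between -0.19 and -0.05, with adjusted permutation p of 0.565 or more. Without LR replicate 3 these r values ran from -0.44 to -0.27, and with the fourth probe set r was -0.593 without LR replicates 1 and 3. Within HR the 4 r values were -0.061, -0.447, -0.489 and -0.752 in order of brightness. Within LR they had the other sign, at 0.234, 0.410, 0.156 and 0.497. By contrast, the other 4 correlated with each other at r of 0.674 or more, each with an adjusted permutation p of 0.00323 or less and rho of 0.541 or more. Without the 2 arrays farthest from the median those r values were 0.462 to 0.867.

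The larger difference of CRHR2 was not shown to exceed that of CRHR1. The within-animal difference between their brightest probe sets averaged -1.85 ± 0.37 (SD, n = 10) among HR animals, against -2.02 ± 0.22 (SD, n = 10) among LR animals. The shift of 0.18 had a 2-sided permutation p of 0.213, and 7 of 10 HR animals lay above the LR median.

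Of the 2 ligand genes, CRH was read on SNOWBALL_000830_st, with a mean of 6.26 ± 0.22 (SD, n = 10) for HR against 6.11 ± 0.18 (SD, n = 10) for LR. HR ran from 5.92 to 6.62 with a median of 6.21, and LR from 5.72 to 6.31 with a median of 6.13. The 4 highest animals were all HR (replicates 2, 4, 6 and 8) and LR replicate 3 was the lowest, but HR replicates 3 and 7 also lay near the bottom. HR minus LR came to 0.15 ± 0.09 (SE), a fold of 1.11, its 95% confidence interval was -0.04 to 0.34, and it had a limma adjusted p of 0.271.

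UCN3 was nearly level between the groups on SNOWBALL_013632_st. HR ran from 6.24 to 6.74 with a median of 6.57, and LR from 6.18 to 6.77 with a median of 6.56. The highest and the lowest animal were both LR, and 5 of 10 HR animals lay above the LR median. The difference was 0.04 ± 0.08 (SE), with a 95% confidence interval of -0.12 to 0.20 and a limma adjusted p of 0.725. UCN2, which encodes the other CRHR2-selective urocortin and was not among the 6 genes, gave 0.14 ± 0.08 (SE) on 1 probe set, with a limma adjusted p of 0.229.

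Array background moved with these values. LR replicate 3 had the lowest background mean, 3.71, and the lowest median correlation with the other arrays, 0.876, and it was the lowest of the 20 arrays in 7 of the 9 probe sets. Background averaged 4.21 ± 0.13 (SD, n = 10) for HR arrays, against 4.08 ± 0.15 (SD, n = 10) for LR arrays. The brightest CRHR1 probe set followed it at r = 0.695 (permutation p = 0.00106) and rho = 0.522 (permutation p = 0.0201). Over 18 relations the adjusted permutation p was 0.00354 for r and 0.0603 for rho. This r came to 0.445 when LR replicate 3 and HR replicate 4 were omitted, to 0.358 within HR and to 0.80 within LR. The brighter CRHR2 probe set gave r = 0.559 (permutation p = 0.0103, adjusted p = 0.0155) and rho = 0.475 (permutation p = 0.0361, adjusted p = 0.0812). Its r was 0.310 without those arrays, 0.195 within HR and 0.681 within LR. The second CRHR2 probe set gave r = 0.220 (permutation p = 0.352) and rho = 0.304 (permutation p = 0.190), with an adjusted p of r of 0.423.

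**Figure D3:**
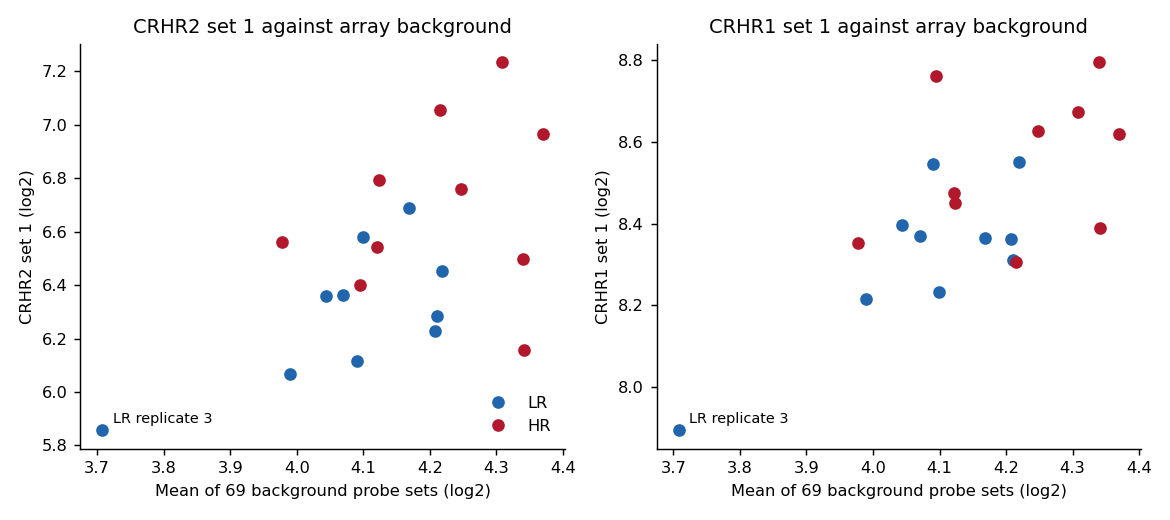
The brighter CRHR2 probe set (left) and the brightest CRHR1 probe set (right), on the log2 scale, against the mean of the 69 background probe sets of the same array (log2), with a point per animal, LR in blue and HR in red. LR replicate 3 lies at the lower left of both panels, with a background mean of 3.71.

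With the background mean as a covariate, the CRHR2 difference was 0.28 ± 0.13 (SE, unadjusted limma p = 0.0346, adjusted p = 0.9997), and it was the only 1 of the 8 with an unadjusted p under 0.05. In that fit 1.99% of all tested probe sets had such a p and were higher in HR. The 3 CRHR1 differences came to 0.12, 0.11 and 0.16, CRH to 0.06, and UCN3 to -0.06. Without LR replicate 3 the same 4 probe sets kept an unadjusted p under 0.05, with CRHR2 at 0.35 and CRHR1 at 0.17, 0.15 and 0.21, while UCN3 came to 0.0012. In that fit 7.86% of all tested probe sets had such a p and were higher in HR. With the first principal component as a covariate, which held 49.0% of the variance, 0 of 8 had an unadjusted p under 0.05, against 1.88% of all tested probe sets higher in HR, and CRHR2 came to 0.22 ± 0.12 (SE). Without the 4 arrays of lowest correlation (LR replicates 2 and 3, HR replicates 4 and 6) CRHR2 came to 0.21 ± 0.11 (SE), and again 0 of 8 had such a p, against 2.82% of all tested probe sets higher in HR. The 4 arrays left out held the 2 lowest component scores, both LR (-102 and -45.0), and the 2 highest, both HR (43.9 and 37.6). The component and the group were thus partly mixed, so both fits can also take out part of a group difference. The part of array background in the differences was not tested.

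**Figure D4:**
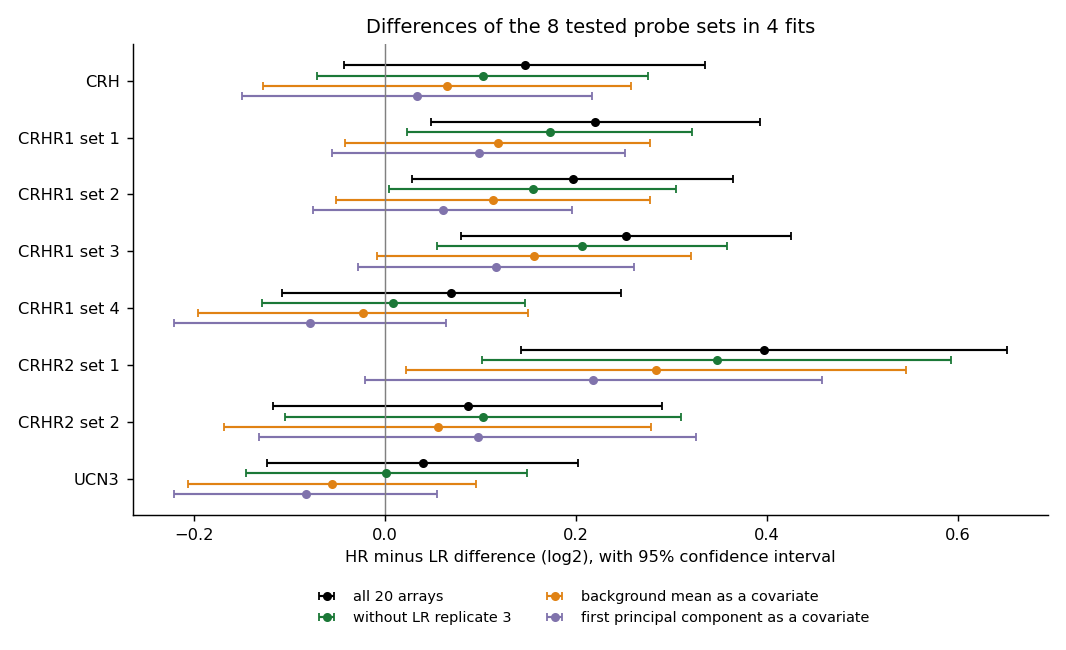
HR minus LR differences (horizontal axis, log2) of the 8 tested probe sets with 95% confidence intervals in 4 fits: all 20 arrays, without LR replicate 3, with the background mean as a covariate and with the first principal component as a covariate. CRHR2 set 1 goes from 0.40 with all arrays to 0.28 given the background mean and 0.22 given the first component.

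The members were next compared with each other over the 20 animals, on the brightest probe set of each gene. All 6 pairs had a positive r, from 0.203 for CRH and UCN3 to 0.561 for CRH and CRHR2, and none passed after adjustment over the 6. All 6 were lower with array background removed. On residuals from the background mean r came to -0.15 for CRH and UCN3, 0.053 for CRH and CRHR1, 0.030 for UCN3 and CRHR1, 0.110 for UCN3 and CRHR2, 0.137 for CRHR1 and CRHR2 and 0.385 for CRH and CRHR2. CRH and UCN3 also turned to -0.097 without LR replicate 3, and CRH and CRHR1 went from 0.390 to -0.014 without LR replicate 3 and HR replicate 4. For CRH and CRHR2 r was 0.561 (permutation p = 0.00987, adjusted p = 0.0592) and rho was 0.374 (permutation p = 0.105, adjusted p = 0.263), with r = 0.484 within HR and 0.441 within LR. Without LR replicate 3 and HR replicate 4 its r was 0.327. CRHR1 and CRHR2 gave r = 0.471 (permutation p = 0.0367, adjusted p = 0.106) and rho = 0.350 (permutation p = 0.132, adjusted p = 0.263), but r was 0.016 within HR and 0.493 within LR, and 0.341 without LR replicate 3 and HR replicate 9. UCN3 and CRHR2, a ligand and its receptor, gave r = 0.407 (permutation p = 0.0748, adjusted p = 0.106) and rho = 0.356 (permutation p = 0.123, adjusted p = 0.263). Their r was 0.263 within HR and 0.610 within LR, and 0.288 without LR replicate 3 and HR replicate 2.

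The genes whose pattern over the 20 arrays was most like each member were found after the group means were removed, as a description. For CRHR2 these were EGR4, an activity-induced transcription factor, at r = 0.874, FAM57A at 0.860, the cell cycle inhibitor gene CDKN1A at 0.847, the stress-responsive gene NDRG1 at 0.844 and TMBIM1 at 0.841. All 5 kept r of 0.812 or more on residuals from the background mean. For UCN3 they were QRFP, which encodes another neuropeptide, at 0.910, VPREB3 at 0.878, TUSC5 at 0.852, TMEM119, a microglial gene, at 0.842 and EHMT1, a histone methyltransferase gene, at 0.841. For CRH they were ITPKA, an inositol kinase gene of dendritic spines, at 0.808, DUSP7 at 0.805, DGAT2 at 0.798, SLC25A37 at 0.796 and PIM2 at 0.793. For CRHR1 they were TMUB2 at 0.808, GGA1 at 0.803, SCARF2 at 0.790, the Notch ligand gene JAG2 at 0.789 and ZNF282 at 0.784, and these 5 came to between 0.627 and 0.684 on the background residuals. The points of every r share the same arrays, and the lists were drawn from 10307 genes.

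Other genes of the pathway were then read on their brightest tested probe set. Of 35 genes of CRH receptor signalling, 29 were tested and 0 passed after limma adjustment, against 0.0097% of all tested genes. With an unadjusted p under 0.05 there were 5 higher and 6 lower in HR, which is 17.2% and 20.7% of the 29, against 14.2% and 15.3% of all 10307 tested genes. Their median difference was 0.07, against 0.05 for all tested genes. ARRB2, which encodes the beta-arrestin that binds activated receptors, gave 0.36 ± 0.10 (SE), at a limma adjusted p of 0.157. The regulatory subunits of protein kinase A, PRKAR2B and PRKAR1A, gave -0.49 ± 0.15 (SE) and -0.34 ± 0.11 (SE), and the adenylyl cyclase gene ADCY3 gave 0.19 ± 0.07 (SE), with limma adjusted p values of 0.157 for both subunits and 0.161 for ADCY3. With the background covariate these 4 came to 0.20, -0.24, -0.16 and 0.09. The stimulatory G protein gene GNAS gave 0.02 ± 0.05 (SE).

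Among 16 peptides, receptors and processing enzymes of the stress axis, 11 were tested, and 0 passed. At an unadjusted p under 0.05, 0 were higher and 3 (27.3%) lower in HR, against 14.2% and 15.3% of all tested genes. These 3 were FKBP5, a co-chaperone of the glucocorticoid receptor, at -0.59 ± 0.19 (SE), CPE, a peptide-processing enzyme, at -0.14 ± 0.06 (SE) and NR3C1, the glucocorticoid receptor itself, at -0.30 ± 0.14 (SE), with limma adjusted p values of 0.157, 0.176 and 0.185. The vasopressin gene AVP gave 0.15 ± 0.08 (SE). With the background covariate FKBP5 came to -0.33, CPE to -0.05, NR3C1 to -0.05 and AVP to 0.04. Of 13 other receptors of the same class B family, 8 were tested and 0 passed. At an unadjusted p under 0.05 there was 1 higher in HR (12.5%, against 14.2% of all tested genes), the growth hormone-releasing hormone receptor gene GHRHR. It gave 0.24 ± 0.08 (SE) at a limma adjusted p of 0.157, while CALCR gave -0.29 ± 0.15 (SE), the PACAP receptor gene ADCYAP1R1 0.13 ± 0.07 (SE) and VIPR1 0.12 ± 0.07 (SE). With the background covariate GHRHR came to 0.13, CALCR to -0.09, ADCYAP1R1 to 0.03 and VIPR1 to 0.10. In these lists the r of a gene with the first component ran from -0.958 for GNAQ to 0.928 for ADCY6. Some genes hardly followed it, such as GNAS at -0.014.

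**Figure D5:**
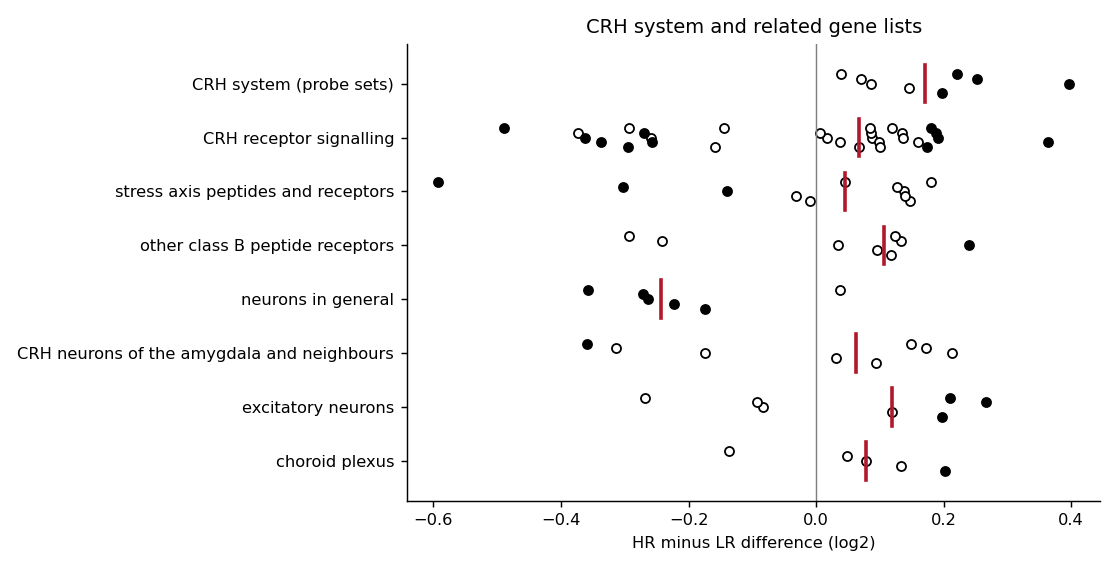
HR minus LR differences (horizontal axis, log2) of the 8 tested CRH system probe sets and of the tested genes of 7 lists, with filled points for an unadjusted limma p under 0.05, open points for the rest and a red bar at the median. The CRH system has its median at 0.17, and the 6 general neuron markers have theirs at -0.24.

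Markers of the cells that the samples could hold were read beside the members. General neuron markers were high, with SNAP25 at 11.5 in HR and 11.7 in LR. Of the 6, 5 (83.3%) had an unadjusted limma p under 0.05 lower in HR, against 15.3% of all tested genes. The median difference of the 6 was -0.24, opposite in sign to the tested CRH receptor probe sets. The mean level of these 6 ran from 9.87 to 10.4 over HR animals and from 10.1 to 10.8 over LR animals, and their differences came to between -0.13 and -0.02 with the background covariate. Neurons that use CRH in the central amygdala also make GABA and other peptides. Of 12 markers of these neurons and of their neighbours 8 were tested. At an unadjusted p under 0.05, 0 were higher and 1 (12.5%) lower in HR, against 14.2% and 15.3% of all tested genes. That 1 was GAD2 at -0.36 ± 0.16 (SE), while SLC32A1, another GABA marker, gave 0.17 ± 0.10 (SE). With the background covariate they came to -0.15 and 0.01. By means 5 of the 8 were higher and 3 lower in HR. Somatostatin (SST) gave 0.15 ± 0.08 (SE) and neuropeptide Y (NPY) 0.21 ± 0.12 (SE), while NTS gave -0.31 ± 0.28 (SE) and DRD2 -0.17 ± 0.23 (SE). The mean level of the 8 ran from 7.85 to 8.58 in HR and from 7.83 to 8.66 in LR. PRKCD, a marker of central amygdala neurons, averaged 4.14 in HR and 4.19 in LR, below the filter. Of 8 excitatory neuron markers 7 were tested, and 4 averaged higher and 3 lower in HR. At an unadjusted p under 0.05, 3 (42.9%) were higher and 0 lower, against 14.2% and 15.3% of all tested genes. These 3 were NEUROD2 at 0.27 ± 0.09 (SE), NRGN at 0.20 ± 0.08 (SE) and the vesicular glutamate transporter gene SLC17A7 at 0.21 ± 0.09 (SE). Lower in mean were SLC17A6, the other such transporter gene, at -0.27 ± 0.19 (SE), RSPO2 at -0.09 ± 0.13 (SE) and NEUROD6 at -0.08 ± 0.18 (SE). With the background covariate NEUROD2 came to 0.16, NRGN to 0.12 and SLC17A7 to 0.15. In the same fit SLC17A6 came to -0.01, RSPO2 to 0.05 and NEUROD6 to 0.23. Their mean level ran from 8.56 to 9.01 in HR and from 8.52 to 9.05 in LR. Of 8 markers of amygdala and striatal projection neurons 4 were tested, and 1 averaged higher and 3 lower in HR. At an unadjusted limma p under 0.05, 0 were higher and 1 (25%) lower, against 14.2% and 15.3% of all tested genes. That 1 was PDE10A at -0.25 ± 0.09 (SE). With the background covariate the 4 came to between -0.30 and -0.01. Of 5 hippocampus markers 4 were tested, 2 averaged higher and 2 lower, and 0 had such a p.

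Choroid plexus, a site of CRHR2 in rodents, was variable between animals, as the mean level of its 5 tested markers ran from 6.13 to 8.63 in HR and from 6.10 to 8.15 in LR. Its transthyretin marker TTR gave a difference of 0.13 ± 0.71 (SE), which turned to -0.10 without LR replicate 3 and to -0.51 with the background covariate, and KL gave -0.14 ± 0.11 (SE). Of the 5, 4 averaged higher and 1 lower in HR. At an unadjusted p under 0.05 there was 1 higher in HR (20%, against 14.2% of all tested genes), FOLR1, at 0.20 ± 0.10 (SE). The other 3 named markers, OTX2, SLC4A5 and KCNE2, were below the filter, and in a fit without it SLC4A5 gave 0.32 ± 0.10 (SE), at an unadjusted limma p of 0.00389 and an adjusted p of 0.251, while KCNE2 gave -0.02 ± 0.10 (SE). Of the hypothalamus markers 4 of 6 named were tested, with a mean level from 6.54 to 6.86 in HR and from 6.21 to 6.72 in LR, and PMCH averaged 2.21 in HR and 2.25 in LR. All 4 averaged higher in HR, as did the tested CRH receptor probe sets and 5991 of all 10307 tested genes. The median difference of the 4 was 0.14, and with the background covariate they came to between -0.02 and 0.15. Their means lay within the range of the background probe sets. TRH gave 0.22 ± 0.09 (SE) at an unadjusted limma p of 0.0298 and an adjusted p of 0.172. The 2 tested blood markers also averaged higher in HR, HBB by 0.22 ± 0.15 (SE) and HBM by 0.19 ± 0.09 (SE), with unadjusted limma p values of 0.153 and 0.0416. With the background covariate these 2 markers came to 0.07 and 0.09. Their mean level ran from 7.11 to 7.78 in HR and from 6.55 to 7.47 in LR. All 5 tested markers of smooth muscle and vessel wall averaged higher in HR. At an unadjusted p under 0.05 there was 1 higher in HR (20%, against 14.2% of all tested genes). With the background covariate the 5 markers came to between -0.005 and 0.14. Their mean level ran from 6.54 to 6.83 in HR and from 6.13 to 6.72 in LR. The part of these cells in the differences of the CRH receptors was not tested.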

How the data were processed

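Total RNA was labelled and hybridised by the authors to 1 array per animal and scanned with GCOS 1.1.1, as the processing notes state. The deposited log2 values were, per the study's methods, made by the authors with the robust multichip average (background correction, quantile normalization and a summary per probe set). The detection filter of the study was not applied in the table used here. Of 47845 probe sets, 123 were array controls. Tests covered the 23860 others whose mean of the 20 arrays reached 5.18, the median of these means. Array medians lay between 5.14 and 5.22. Precision is limited by the number of arrays.

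The platform annotation, parts of which may be outdated, gave 1 symbol to 26426 probe sets and none to 21419. Groups came from the coping label. Group differences were fitted with limma 3.58.1 (R 4.3.3), by lmFit and then eBayes, without covariates and 2-sided, with Benjamini-Hochberg adjustment over all tested probe sets. The procedure was tested on simulated data. Correlations and the CRHR2 with CRHR1 comparison used 2-sided permutation tests with 100000 resamples. The planned pairs with CRHBP and UCN could not be made. For lists, the brightest tested probe set stood for a gene. Named genes were all members, the 5 genes most like each, up to 4 genes of each list with the smallest p, and markers that a statement rests on. UCN2, GNAS and the lists' receptor and marker genes outside that rule were named for their role after their values were seen. Members and lists were chosen with earlier results of these data known. Alternatives changed the filter, the normalization, the variance model, the weights of arrays, the covariates, the rule for probe sets of 1 gene or the arrays included.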

Additional observations from a re-analysis of the deposited data

Results flagged for a closer look

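The highest or lowest of the 10 animals of a group is named here where its distance from the next animal took up an unusually large share of the range (Dixon's criterion). This held for 5 of 22 sets of values, 4 of them through LR replicate 3. About 1.1 would be found by chance. Among LR animals, LR replicate 3 was low in CRHR1 probe set SNOWBALL_014322_st, at 7.89 with the next animal at 8.22, and in SNOWBALL_034015_st, at 6.43 with the next at 6.84. Its background mean of 3.71 lay below the next lowest, 3.99, and its first component score was -102, with the next at -45.0. Among HR animals, HR replicate 6 was high in CRHR1 probe set SNOWBALL_014285_s_st, at 8.40 with the next at 8.08.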

How the results depend on the processing

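No CRH system probe set passed an adjusted p of 0.05 in any limma setting tried. Over 67 results of single probe sets under alternatives other than 1 array left out, 57 kept their direction and 10 turned it. The fourth CRHR1 probe set turned to -0.0227 with the background covariate, -0.0312 with array weights, -0.0786 with the first component, -0.00339 with the animal number and -0.0515 without the 4 arrays of lowest correlation. UCN3 turned to -0.0556, -0.00667, -0.0828, -0.00975 and -0.0341 in the same settings. In 160 results with 1 array left out none turned. The number of probe sets with an unadjusted p under 0.05 was 4, and was 3 to 4 with 1 array left out. It was 1 with the background covariate and 1 with the animal number, which nearly separates the groups. It was 0 with the first component and 0 without the 4 arrays, settings that are also mixed in part with the group. It was also 1 with the stricter filter, which kept only 1 member. Over all 23860 tested probe sets this number went from 6283 (26.3%) to 1018 (4.27%), 932 (3.91%), 1107 (4.64%) and 1378 (5.78%), in the same order. The stricter filter tested 4282 probe sets, of which 1504 (35.1%) had such a p, a higher share. With array weights the number was 3757 (15.7%). The number passing after adjustment went from 2 to between 0 and 7 over all settings. The correlation of CRH and UCN3 turned to -0.15 on background residuals and to -0.10 without LR replicate 3. The causes were not tested. No paired analysis was possible because the replicate numbers were given in accession order. The mean levels of CRH, CRHR2, UCN3 and every CRHR1 probe set but the brightest lay within the range of the background probe sets. This limits what these arrays can show.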
